A study of Oryctolagus cuniculus with 16 samples.

Results

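The native vaginal wall of the rabbit is described here from 6 libraries, those labelled as the control treatment, of the 16 samples of a study of vaginal grafts. Each came from the vagina of a female New Zealand White rabbit of 17 to 19 weeks (juvenile, by the submitters' wording) that had no operation. The other 10 samples came from operated animals and are not used, and no groups are compared. The libraries are named by the animal number of their label: control 2, 9, 16, 24, 25 and 29, and lists of 6 values follow that order. The number 9 also stands in the label of a grafted animal, and the labels do not say whether that is 1 animal. They give neither the position along the vagina, nor the depth of wall taken, nor the hormonal state of the animal. RNA was extracted from a small frozen piece of tissue, and poly(A) RNA was sequenced from stranded libraries.

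The vaginal wall is a tube of smooth muscle and collagen-rich connective tissue with blood vessels and nerves, lined by an epithelium. In the rabbit, the upper and longer portion is lined by a columnar epithelium with secretory and ciliated cells, and the lower portion by a squamous one. Oestrogen and progesterone act on both the epithelium and the stroma through nuclear receptors, and HOX transcription factors of the 5′ ends of their clusters set the position along the female reproductive tract during development.

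The deposited counts assigned 17152300 to 23236339 reads per library to 13001 named genes. Values are counts-per-million (CPM) of named genes, scaled between libraries by the trimmed mean of M values (TMM), and a count of 0 allows up to 0.114 to 0.2501 CPM, depending on the library. That limit covers counting error only. Of the 13001 genes, 9007 reached 1 CPM in all 6 libraries, 10676 reached it in at least 1, and 849 had no count. The spread between libraries is given as the standard deviation (SD) of log2 CPM, where an SD of 1 is a 2-fold step, over the 10156 genes with a mean of at least 1 CPM. Control 2 stood apart: genes of the mitochondrial genome took 26.0% of its named counts against 8.92 to 15.7% elsewhere, and its TMM factor was 0.638 against 0.975 to 1.22. With plain library totals its values would lie a median of 0.64 log2 units lower and those of controls 9 and 29 0.29 and 0.25 units higher. Spearman correlations between libraries across genes, which are not independent replicates, ran from 0.817 (controls 2 and 9) to 0.963 (controls 16 and 29).

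Smooth muscle and matrix transcripts led the libraries. Among the 25 nuclear genes with the highest mean level, 8 encode proteins of the contractile apparatus of smooth muscle and 3 encode the chains of collagens I and III. RABEFLA2, an older symbol of the translation elongation factor EEF1A1, took 2.93% of the named counts on average. MYH11, the smooth muscle myosin heavy chain, took 1.96%, the enteric-type actin ACTG2 1.39%, and the vascular-type actin ACTA2 1.10%. COL3A1, the collagen III chain, took 0.846%, and the secreted chaperone CLU 1.03%. Longer transcripts collect more reads, and no transcript lengths were used, so these shares do not rank molecules per cell. A total of 245 genes held 50% of the named counts. The 13 mitochondrial protein genes held 14.6% on average. CYP2R1, a vitamin D hydroxylase, and ATOX1, a copper chaperone, also stood among the 25 genes, with means of 4806 ± 1929.7 CPM (SD, n = 6) and 4001 ± 2339 CPM (SD, n = 6). Without the annotation, reads of overlapping or antisense genes cannot be told from their own, and these 2 levels are uncertain.

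The share of muscle RNA differed widely between the libraries. The 28 smooth muscle genes together held 14.4, 2.01, 9.28, 9.08, 12.9 and 3.84% of the named counts. Control 2 was thus the richest in muscle RNA and controls 9 and 29 the poorest, a 7.17-fold range. ACTG2 lay at 45474, 907, 12759, 11015, 25468 and 2851 CPM in controls 2, 9, 16, 24, 25 and 29. DES, the muscle intermediate filament, lay at 19534, 1019, 7416, 10287, 12498 and 1800.5 CPM. Both were low in controls 9 and 29, and 23 of the 28 genes had their 2 lowest values there, as did 10.1% of all 10156 genes. An SD above 1 was found for 17 of the 28 genes and for 14.7% of all genes. The list mean was highest in control 2 and lowest in control 9 with TMM, with DESeq2 size factors and with plain totals. In bulk RNA, fewer cells of a type and less RNA per cell cannot be told apart.

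Within a library, some contractile genes kept near-fixed proportions and others did not. The ratio of DES to ACTA2 counts, which no scaling can change, ran only from 0.600 to 0.824, a 1.37-fold range, while ACTA2 itself ranged over 15.8-fold. MYH11 to ACTA2 ranged from 1.32 to 3.20 and ACTG2 to ACTA2 from 0.535 to 1.70. ACTG2 was thus the more variable actin, with its lowest ratio in control 9 and its highest in control 2. PCP4, a calmodulin-binding protein, was the most variable member of the list, at 974, 23.4, 250.1, 139, 984 and 82.4 CPM. Control 2 and control 25 were alike in this gene, and the others lay well under them. RBPMS2, an RNA-binding protein of smooth muscle, was the steadiest, at 12.2, 10.7, 14.2, 12.4, 12.4 and 8.25 CPM. Its spread was 0.27 log2 units.

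Skeletal muscle genes were uneven. Of 24 in the table, 15 reached a mean of 1 CPM, several of which smooth muscle also expresses, and 12 of the 15 had an SD above 1, against 14.7% of all genes. Their mean was 4.83, 2.05, 3.85, 3.39, 5.12 and 2.90 log2 CPM. It was highest in control 25 and lowest in control 9, and 7 of the 15 genes were highest in control 2, against 22.7% of all genes. ACTA1, the skeletal actin, had a mean of 4.95 ± 5.799 CPM (SD, n = 6), and MYH1, a fast myosin, lay at or under 0.101 CPM in each library. CKM, the muscle creatine kinase, was lowest in control 9 at 1.48 CPM and highest in control 2 at 214 CPM. TNNT3, the fast skeletal troponin T, stood at 64.8 CPM in control 25 and at no more than 3.02 CPM in the others.

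Fibroblast genes held an even mean across the libraries with TMM, although single members varied. The 22 members averaged 8.16, 8.18, 8.32, 8.14, 7.71 and 8.15 log2 CPM, and 1 of them, the collagen I chain gene COL1A1, had an SD above 1, against 14.7% of all genes. The median SD of the 22 genes was 0.84, however, against 0.42 for all genes. Control 25 had the lowest list mean with TMM and DESeq2 size factors. With plain totals the list mean was less even, from 7.52 log2 CPM in control 2 to 8.47 in control 9. LUM, a small proteoglycan of collagen fibrils, lay at 2087, 2224, 1747, 1464, 1074 and 1568 CPM in controls 2, 9, 16, 24, 25 and 29. DCN, a related fibril-binding proteoglycan, ranged from 2467 CPM in control 25 over a median of 5062 to 9112 CPM in control 29. PDGFRA, the growth factor receptor that marks fibroblasts, ranged from 22.1 CPM in control 25 over a median of 62.9 to 143 CPM in control 9. DPT, a matrix protein of dermal-type fibroblasts, lay at 262, 117, 209, 100.6, 110.3 and 406 CPM. The order of the libraries thus differed between these 4 genes under the even list mean.

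Fibrillar collagen genes, in contrast, spanned a wide range and moved as a block. COL1A2 lay at 14604, 4179, 10913, 5439, 8998 and 2314 CPM in controls 2, 9, 16, 24, 25 and 29, and COL3A1 at 16906, 4404, 13807, 7021, 9720.1 and 2824 CPM. Controls 2 and 16 were high in both and control 29 the lowest. The ratio of COL3A1 to COL1A2 counts stayed between 1.05 and 1.29 and that of COL1A1 to COL1A2 between 0.301 and 0.419, although each gene ranged over at least 5.99-fold. Of 26 collagen genes, 10 were lowest in control 29, as were 9.85% of all genes. The list mean was lowest in control 29 with TMM and DESeq2 size factors and in control 2 with plain totals. COL14A1, which binds fibril surfaces, was steadier, between 389.6 CPM in control 25 and 919 CPM in control 16 with a median of 539.5. The most variable collagen was COL17A1, a hemidesmosome chain of basal epithelial cells rather than of stroma, between 0.334 CPM in control 2 and 16.7 CPM in control 29 with a median of 1.87.

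Elastic fibre genes had another order. Of 17 members, 8 were lowest in control 25, against 16.7% of all genes, and 7 were highest in control 24, against 18.2%. With plain totals the list mean was lowest in control 2. FBN1, the main microfibril protein, lay at 208, 342, 234, 643, 88.8 and 280.1 CPM in controls 2, 9, 16, 24, 25 and 29. LOXL3, one of the enzymes that cross-link elastin and collagen, was nearly constant at 48.8, 46.2, 47.5, 51.7, 40.6 and 52.9 CPM. SPP1, a secreted matrix phosphoprotein also made by macrophages and epithelia, was the most variable matricellular gene, between 51.1 CPM in control 2 and 4766 CPM in control 29 with a median of 587. DCN and SPP1 were both highest in control 29, the library with the lowest fibrillar collagen values.

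Vessel genes were present in every library and lowest in control 25. Of 16 blood endothelium genes, 13 were lowest there, against 16.7% of all genes, and 10 had their 2 highest values in controls 9 and 24, as did 10.4% of all genes. PECAM1, an adhesion molecule of endothelial junctions, lay at 129, 175, 118, 236, 71.8 and 127 CPM in controls 2, 9, 16, 24, 25 and 29. VWF, the clotting factor stored in endothelium, ranged from 78.0 CPM in control 25 over a median of 223 to 375 CPM in control 9. All 6 lymphatic endothelium genes were lowest in control 25, against the same 16.7%. LYVE1, a hyaluronan receptor of lymph vessels and some macrophages, ranged from 26.9 CPM in control 25 over a median of 58.9 to 215 CPM in control 24. Its high value in control 24 stands beside high values of CD163 and MRC1 in the same library, whose part in it was not tested.

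Schwann cell genes were found in every library, and some genes of nerve fibres were near 0. SOX10, the transcription factor of Schwann cells, was found in each library, at 2.42, 1.25, 3.27, 3.56, 1.82 and 5.26 CPM in controls 2, 9, 16, 24, 25 and 29. Control 29 was the highest, and the list mean was the highest there under each scaling. The lowest was control 9 with TMM and control 2 with plain totals. TUBB3, a neuronal tubulin, averaged 4.81 ± 2.56 CPM (SD, n = 6). VIP, a peptide of nerves that dilate vaginal vessels, was detected with 49 counts in control 29, 2.41 CPM, and a single count in control 16. In the other 4 libraries its count was 0. RGS5, a marker of pericytes, had the extremes of the endothelium, between 24.6 CPM in control 25 and 306 CPM in control 24 with a median of 85.9, whereas MCAM, which vascular muscle also carries, was lowest in controls 9 and 29, at 82.2 and 93.1 CPM, and lay at 205 to 338 CPM in the others. ADIPOQ, the hormone made by fat cells, was measured at 147, 182, 145, 133, 46.6 and 94.9 CPM. The mean of the 4 expressed fat cell genes was instead highest in control 24, at 5.65 log2 CPM with TMM. That mean was lowest in control 25 with TMM, as ADIPOQ was, and in control 2 with plain totals. LEP, another fat cell hormone, had no count in any library.

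Columnar epithelium genes were expressed in 5 libraries and nearly absent from control 2. The junction protein CDH1 and the surface protein EPCAM lay at 1.25 and 1.58 CPM in control 2, against 35.0 to 153 and 51.03 to 238 CPM in the others. All 21 columnar members were lowest in control 2, against 27.5% of all genes, and 20 were highest in control 9, against 23.5%. Their SD was above 1 for 20 of 21 genes over 6 libraries. Without controls 2 and 9, it was above 1 for 0 of 21, against 8.30% of all genes. The spread of this list thus rested on controls 2 and 9. KRT8, a simple-epithelium keratin, lay at 198, 99.0, 305 and 155 CPM in controls 16, 24, 25 and 29. The columnar list held 0.00291% of the named counts in control 2 and 0.310% in control 9.

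Genes of a squamous lining were measured in part. The 14 basal genes averaged 2.35, 4.48, 4.73, 3.63, 3.78 and 4.45 log2 CPM and the 9 suprabasal genes 3.40, 4.77, 4.48, 4.31, 4.06 and 3.72, each lowest in control 2. TP63, the transcription factor of basal cells, lay at 0.167, 1.02, 9.51, 1.44, 0.757 and 22.4 CPM in controls 2, 9, 16, 24, 25 and 29. Control 29 and control 16 were the highest. KRT5, the basal keratin, was highest in the same libraries in the other order, at 30.5 CPM in control 16 and 19.1 CPM in control 29, and at 0.5003 to 7.76 CPM elsewhere. COL17A1 was high in this pair too, at 13.9 and 16.7 CPM, against 0.334 to 2.84 CPM in the others. These 3 genes do not stand for the list: of the 14 basal genes, 6 were highest in control 9, 3 in control 24 and 1 in control 16, against 23.5, 18.2 and 9.20% of all genes, and 9 were lowest in control 2, against 27.5%. KRT13 and KRT4, the usual keratins of a non-cornified squamous lining, and KRT14 were not analysed here. KRT1, a keratin of differentiated squamous cells, was at or under 0.461 CPM in each library. Of 20 suprabasal genes in the table, 9 reached a mean of 1 CPM. SBSN, a cornification gene, had no count. The study's labels do not say whether upper or lower vagina was taken, so the position of the pieces cannot be read from them.

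Secretory and transport genes followed the columnar epithelium but differed among themselves. MUC1, a membrane mucin, lay at 1.75, 519.7, 137, 112.6, 134 and 162 CPM in controls 2, 9, 16, 24, 25 and 29. Leaving out controls 2 and 9, its SD was only 0.21. OVGP1, the oestrogen-responsive oviductal glycoprotein, was not highest where epithelium was highest: it lay at 8.09, 19.6, 332, 86.6, 907 and 53.8 CPM. Control 25 held the most and control 9, with the most columnar RNA, little. CLU lay at 514, 38373, 2149.5, 6070.4, 2366 and 3182 CPM, so that the secreted list took 5.44% of the named counts in control 9 and 0.0666 to 0.861% elsewhere. LTF, the iron-binding lactoferrin, ranged from 1.501 CPM in control 2 over a median of 30.0 to 449 CPM in control 9. CFTR, the chloride channel that drives fluid secretion, lay at 0.167, 259.8, 169.7, 66.0, 93.2 and 102.2 CPM. SCNN1A, a subunit of the sodium channel that drives absorption, ranged from 0.667 CPM in control 2 over a median of 49.8 to 164 CPM in control 9. AQP2, a water channel, was high in controls 16 and 25, at 97.6 and 72.4 CPM, and at 8.82 and 10.1 CPM in controls 24 and 29.

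Motile cilia genes split the libraries into 2 and 4. Of 17 cilia genes, 13 had their 2 highest values in controls 16 and 24, as did 5.63% of all genes. SPAG17, a protein of the central apparatus of motile cilia, lay at 0, 0, 13.2, 14.2, 0 and 0.295 CPM in controls 2, 9, 16, 24, 25 and 29. RSPH4A, a radial spoke head protein, lay at 0, 0, 6.96, 16.7, 0.0505 and 0.0491 CPM. FOXJ1, the transcription factor that switches on motile cilia, lay at 0, 0.379, 5.41, 2.52, 0.303 and 0.0982 CPM. In these 3 genes the other 4 libraries stayed at or under 0.379 CPM, and control 9, with the most columnar RNA of all, was among them. DNAH5, a dynein arm protein, also peaked in controls 16 and 24, at 44.9 and 25.1 CPM, but reached 11.6 CPM in control 9. SPAG6, another central apparatus protein, lay at 10.3 and 14.9 CPM in controls 16 and 24 and at no more than 0.750 CPM elsewhere. RFX3, a regulator of cilia in general that other cells also use, did not follow, at 11.6, 12.3, 14.96, 11.8, 6.01 and 15.03 CPM.

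**Figure D1:**
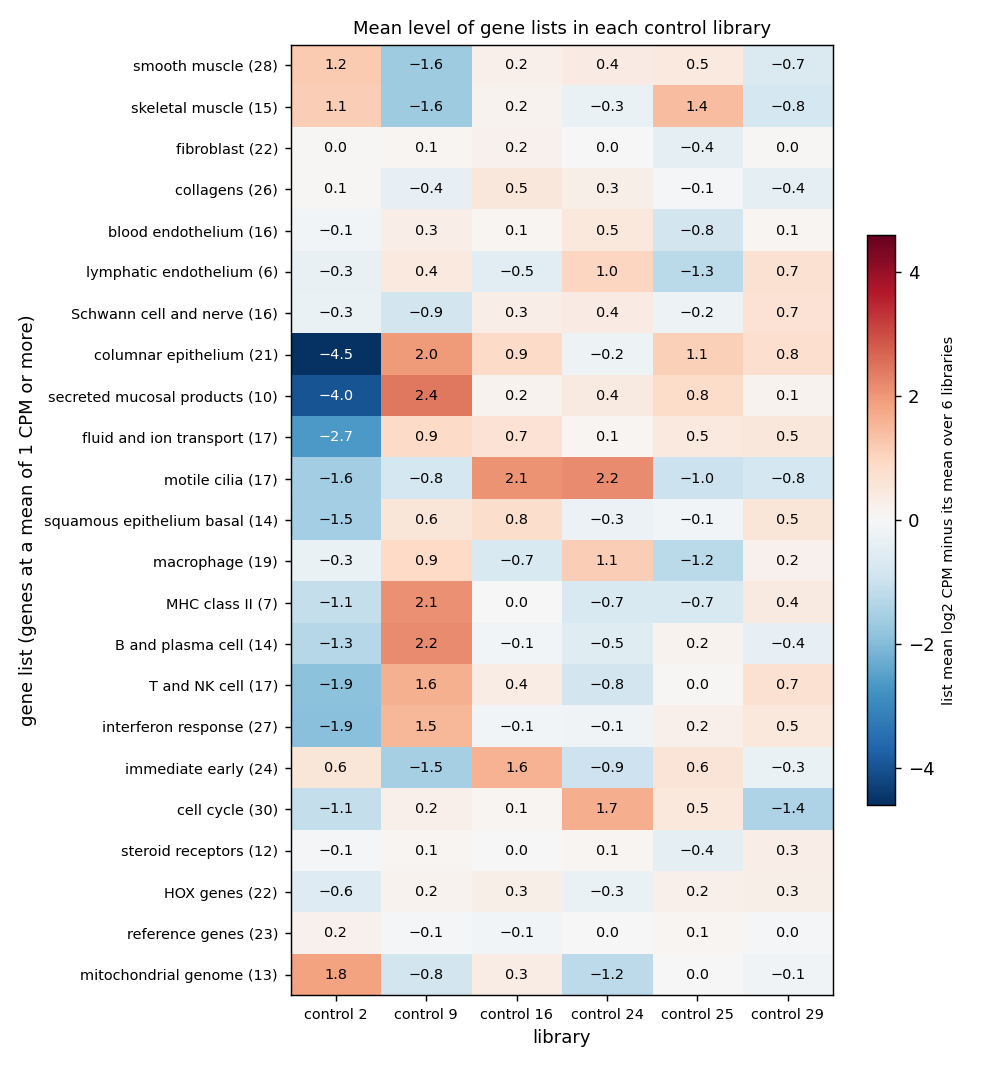
Mean log2 CPM of 23 gene lists in each of the 6 control libraries, as the difference from the mean of that list over the libraries (red higher, blue lower; the number of genes behind each mean stands in brackets). The columnar epithelium of control 2, the cilia of controls 16 and 24, the immediate early genes of control 16 and the cell cycle genes of control 24 stand out, while fibroblast, steroid receptor and reference gene means stayed near 0.

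Immune genes divided into a lymphoid and antigen presentation group that was highest in control 9 and a macrophage group that was also high in control 24. All 7 MHC class II genes and 13 of 14 B and plasma cell genes were highest in control 9, against 23.5% of all genes. JCHAIN, which joins secreted IgA and IgM, lay at 90.6, 5951, 1434, 552, 1055 and 564 CPM in controls 2, 9, 16, 24, 25 and 29. IGHM, the IgM heavy chain, lay at 178, 4363, 904, 359, 932 and 248 CPM. PIGR, the epithelial receptor that carries these antibodies into the lumen, lay at 5.59, 2649, 550.5, 393, 229 and 481 CPM. Control 9 was thus highest, and control 2 lowest, in all 3 genes of mucosal antibody export. MS4A1, a B cell surface protein, stood at 10.5 CPM in control 9 and at 0.334 to 1.23 CPM in the others. LCK, the T cell kinase, ranged from 0.834 CPM in control 2 over a median of 12.1 to 28.5 CPM in control 9. Of 9 mast cell genes in the table, 4 reached a mean of 1 CPM, as did 10156 of all 13001 genes. The mean of the 4 was lowest in control 2 and highest in control 9, at 0.07 and 2.59 log2 CPM. CPA3, a mast cell protease, had no count in any library.

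Macrophage genes were not 1 block. CSF1R, the growth factor receptor of macrophages, was highest in controls 9 and 24, at 41.7, 139.8, 32.6, 114.1, 15.04 and 62.7 CPM in controls 2, 9, 16, 24, 25 and 29. C1QA, a complement subunit, stood alone at 46.5 CPM in control 9 and lay at 5.30 to 12.6 CPM elsewhere. The scavenger receptor CD163 lay at 20.8, 28.6, 14.8, 243, 9.54 and 23.4 CPM, and the mannose receptor MRC1 at 67.5, 54.2, 33.9, 378, 15.2 and 56.1 CPM, each highest in control 24. The ratio of CD163 to CSF1R counts was 2.13 in control 24 and 0.204 in control 9, with 0.374 to 0.634 in the others. ADAMDEC1, a protease of tissue macrophages, and the lipid receptor CD36 were also highest in control 24, at 1331 and 239 CPM. Their next highest values were 107.2 CPM in control 9 and 25.7 CPM in control 29. Of 19 macrophage genes, 11 were highest in control 9 and 7 in control 24, against 23.5 and 18.2% of all genes. In 13 of them the 2 highest values were in controls 9 and 24, against 10.4%. Control 25 was the lowest in 15, against 16.7%. Neutrophil genes followed these orders in part. Of 9, 4 were highest in control 9, 3 in control 2 and 2 in control 24, against 23.5, 22.7 and 18.2% of all genes. Control 25 was the lowest in 5 of them, against 16.7%, and 1 had its 2 highest values in controls 9 and 24, against 10.4%. CXCL8, the neutrophil attractant, was at 239 CPM in control 2 and at no more than 28.9 CPM in the others, whereas S100A12 was highest in control 9 at 747 CPM.

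Interferon-responsive genes were highest in control 9 for 24 of 27 members and lowest in control 2 for 22, against 23.5 and 27.5% of all genes. GBP1, a guanylate-binding protein, lay at 18.3, 701, 70.6, 112.1, 122 and 148 CPM in controls 2, 9, 16, 24, 25 and 29. Without controls 2 and 9, the SD was above 1 for 3 of the 27 genes, near the 8.30% of all genes, and OASL, an antiviral oligoadenylate synthetase family member, lay within 17.4 to 21.0 CPM in the other 4 libraries. The columnar, MHC class II and interferon lists had the same extreme libraries, 9 and 2, and the part of epithelial content in the interferon values was not tested.

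The receptor genes ESR1 and PGR were expressed in all 6 libraries, with a spread near that of all genes. ESR1, oestrogen receptor alpha, lay at 245, 261, 309, 327, 157 and 359 CPM in controls 2, 9, 16, 24, 25 and 29, a mean of 276 ± 71.9 CPM (SD, n = 6). PGR, the progesterone receptor and itself a target of oestrogen, lay at 74.0, 125, 130.3, 165, 82.5 and 91.1 CPM. Control 25 was lowest in ESR1 and control 2 in PGR. Of 12 receptor genes of this list at a mean of 1 CPM or more, 1 had an SD above 1, against 14.7% of all genes, and the median SD was 0.44, near the 0.42 of all genes. The list mean was lowest in control 25 with TMM and in control 2 with plain totals. Per unit of ESR1, PGR counts ran from 0.254 in control 29 to 0.525 in control 25. ESR1 is the denominator, so a high ratio where ESR1 is low is partly built in. Control 2, also low in ESR1, had a ratio of 0.302.

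ESR2, oestrogen receptor beta, was all but undetected, with a single count in control 29 and none in the other 5. GPER1, a membrane receptor that binds oestrogen, averaged 0.368 ± 0.340 CPM (SD, n = 6). NR3C1, the glucocorticoid receptor, lay at 45.8, 76.1, 53.7, 52.5, 29.9 and 88.6 CPM in controls 2, 9, 16, 24, 25 and 29. NR3C2, the mineralocorticoid receptor, ranged from 16.6 CPM in control 25 over a median of 27.0 to 43.3 CPM in control 29. RXRB, a partner of several nuclear receptors, was the steadiest of the list, between 77.6 CPM in control 24 and 111.8 CPM in control 25 with a median of 98.8. THRB, a thyroid hormone receptor, was the variable one, at 4.59, 12.2, 7.54, 21.4, 3.63 and 18.8 CPM. It was high in controls 24 and 29, whereas its paralogue THRA was lowest in controls 9 and 24, at 73.4 and 80.6 CPM, and lay at 153 to 197 CPM in the others.

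**Figure D2:**
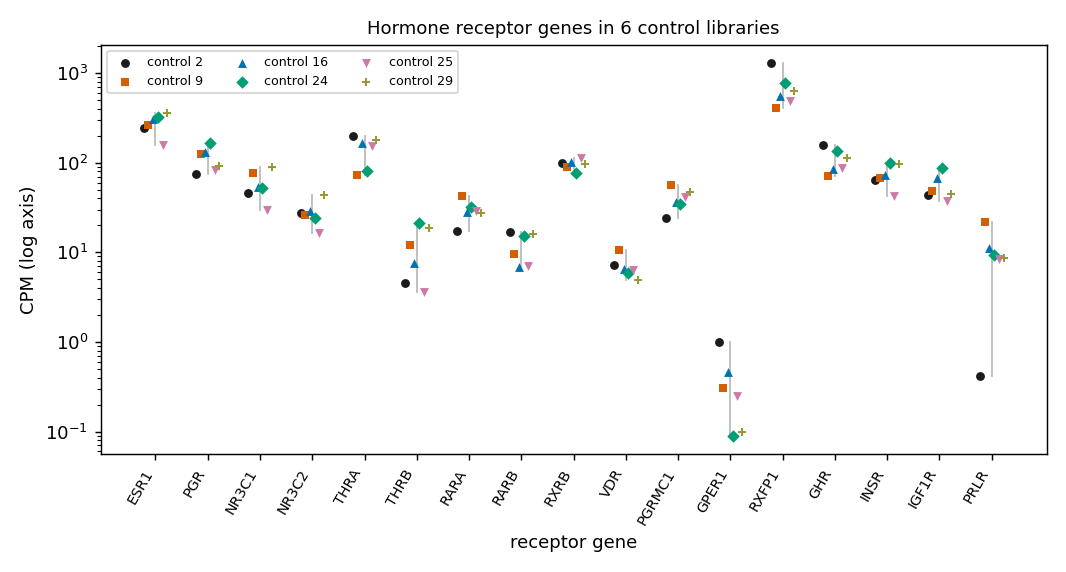
CPM (log axis) of 17 hormone receptor genes, 1 symbol per control library, with a line from the lowest to the highest value. ESR1 spans 157 to 359 CPM and RXRB 77.6 to 111.8 CPM, whereas PRLR falls to 0.417 CPM in control 2.

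Other receptors of reproductive hormones were present as well. RXFP1, the relaxin receptor, lay at 1286, 411, 561, 765, 482 and 626 CPM in controls 2, 9, 16, 24, 25 and 29, highest in control 2 with TMM. With plain totals, control 24 at 826 CPM was a little above control 2 at 821 CPM. PRLR, the prolactin receptor, was at 0.417 CPM in control 2 and 8.53 to 21.5 CPM elsewhere, as the epithelial genes were. GHR, the growth hormone receptor, was even, between 70.2 CPM in control 9 and 158 CPM in control 2 with a median of 99.3. Receptors of the pituitary gonadotrophins, LHCGR and FSHR, averaged 0.206 ± 0.143 CPM (SD, n = 6) and 0.451 ± 0.327 CPM (SD, n = 6). MTNR1A, a melatonin receptor, had no count.

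Oestrogen-responsive genes peaked in different libraries, most often in control 16. Of 13 such genes, 5 were highest there and 3 in control 2, against 9.20 and 22.7% of all genes. An SD above 1 was found for 5 of the 13, against 14.7% of all genes. FKBP5, a chaperone that glucocorticoids and progestins induce, was the most variable of the receptor cofactors, at 1.67, 9.996, 9.30, 20.2, 15.8 and 11.3 CPM. IGF1, a growth factor that oestrogen induces in stroma, lay at 449, 407, 632, 148, 342 and 184 CPM in controls 2, 9, 16, 24, 25 and 29. IGFBP5, which binds it, ranged from 425 CPM in control 24 over a median of 842 to 1056 CPM in control 16. MYC, a regulator of growth that is also an immediate early gene, was highest in controls 16 and 25, at 195 and 158 CPM. LTF was highest in control 9 and OVGP1 in control 25. RASD1, a small GTPase, ranged from 4.24 CPM in control 9 over a median of 16.8 to 36.8 CPM in control 16. SGK1, a kinase that steroid hormones induce, ranged from 57.8 CPM in control 29 over a median of 62.8 to 103.6 CPM in control 16. The list mean was highest in control 16 under each scaling and lowest in control 24 with TMM and in control 2 with plain totals. Enzymes that make sex steroids were near 0: CYP19A1, the aromatase, averaged 0.0384 ± 0.0722 CPM (SD, n = 6), and CYP17A1 0.129 ± 0.135 CPM (SD, n = 6). Enzymes that convert them were present, such as HSD17B4, between 202 CPM in control 16 and 348 CPM in control 29 with a median of 277. HSD11B2, which protects the mineralocorticoid receptor from cortisol, followed OVGP1 in being highest in control 25, at 0.750, 84.9, 40.9, 26.1, 215 and 15.7 CPM. CYP1A1, an enzyme induced through the aryl hydrocarbon receptor, stood at 373 CPM in control 9 and at no more than 2.598 CPM in the others. Its relative CYP1B1 did not share that value, at 43.8, 36.3, 30.0, 19.4, 56.3 and 33.5 CPM.

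Positional genes included expressed HOX genes of posterior and of other groups. Of 33 HOX genes in the table, 22 reached a mean of 1 CPM, as did 10156 of all 13001 genes. Among them were all 4 measured HOXA genes and all 5 HOXD genes of paralogue groups 9 to 13. Of 8 HOXB genes, 6 reached it too, and HOXB5 and HOXB6 averaged 29.8 and 27.6 CPM, above HOXA13 at 25.6 CPM. HOXD13, a gene of the hind end of the body axis and genital region, lay at 298, 52.4, 177, 99.3, 262 and 139.9 CPM in controls 2, 9, 16, 24, 25 and 29. HOXA13, its counterpart, lay at 38.9, 12.8, 35.4, 18.0, 19.8 and 28.8 CPM. Control 9 was the lowest in both under TMM and plain totals. The highest was control 2 with TMM, whereas with plain totals it was control 25 for HOXD13 (256 CPM) and control 16 for HOXA13 (36.3 CPM). HOXA11, a gene of the uterus and cervix, was nearly constant at 7.004, 5.68, 6.96, 8.73, 7.98 and 5.85 CPM, and HOXA10, a gene of the uterus, ranged from 7.65 CPM in control 9 over a median of 15.3 to 17.9 CPM in control 25. None of the 4 HOXA genes of groups 9 to 13 had an SD above 1, and of the 5 HOXD genes only HOXD12 did, against 14.7% of all genes. Their median SDs were 0.40 and 0.55, against 0.42 for all genes. HOXD12 lay at 12.7, 3.75, 11.9, 1.94, 19.3 and 7.56 CPM. HOXD13 also varied relative to HOXD9: the ratio of their counts ran from 3.58 in control 9 to 15.7 in control 25, while HOXD9 itself lay within 13.3 to 20.7 CPM.

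The HOXB cluster behaved otherwise. All 6 of its expressed genes were lowest in control 2, 5 were highest in control 9 and 4 had an SD above 1, against 27.5, 23.5 and 14.7% of all genes. HOXB6 lay at 1.75, 57.9, 29.4, 12.6, 33.6 and 30.4 CPM in controls 2, 9, 16, 24, 25 and 29, and HOXB5 at 4.67, 60.5, 26.0, 15.3, 33.5 and 38.6 CPM. Controls 2 and 9 are also the extremes of the columnar epithelium genes, and the part of epithelial content in it was not tested. HOXB13, at the far end of the cluster, had no count in any library. Of 7 HOXC genes, 2 reached a mean of 1 CPM: HOXC10, between 2.46 CPM in control 29 and 7.57 CPM in control 25 with a median of 3.02, and HOXC4, with a mean of 1.01 ± 0.918 CPM (SD, n = 6). Anterior HOXA genes such as HOXA5 were at a few CPM, between 0.757 CPM in control 25 and 5.26 CPM in control 29 with a median of 2.62.

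**Figure D3:**
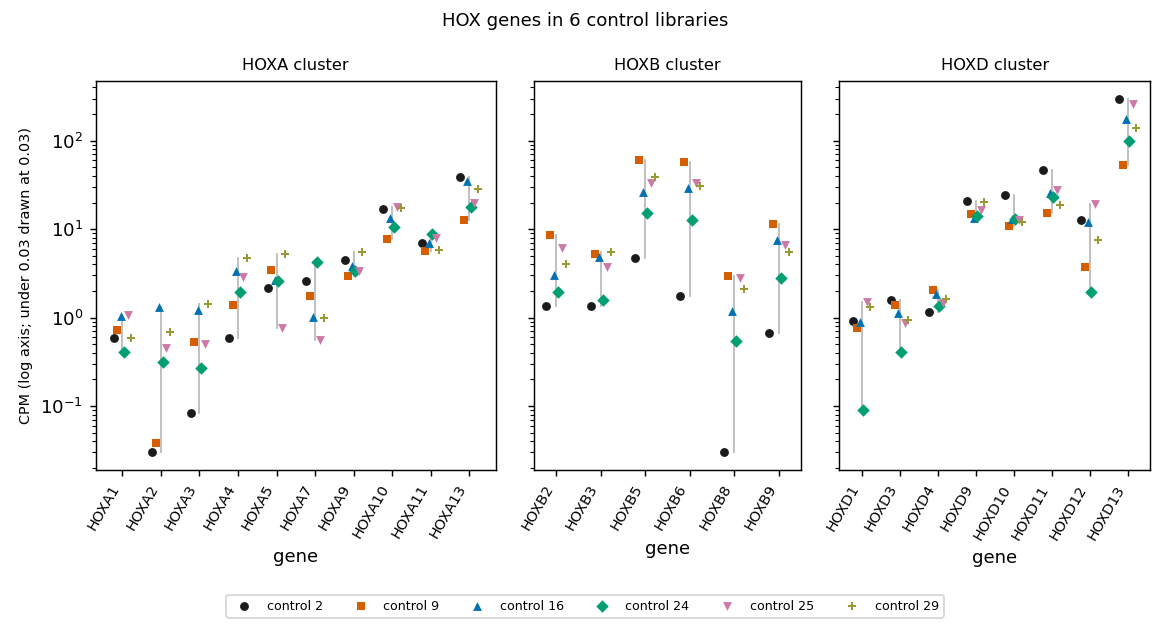
CPM (log axis) of the HOXA, HOXB and HOXD genes with a count in any control library, ordered along each cluster, 1 symbol per library (values under 0.03 drawn at 0.03). The libraries lie close together in HOXA11 and HOXD9, HOXD13 rises to 298 CPM, and each HOXB gene has control 2 at the bottom.

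Of 35 patterning genes, 13 were lowest in control 2 and 10 highest in control 9, shares that are not far from the 27.5 and 23.5% of all genes. The largest SDs in the list were those of PAX8, PAX2 and IHH. PAX8, which marks epithelium derived from the Müllerian duct, lay at 0.334, 107.7, 48.1, 25.3, 71.5 and 44.2 CPM in controls 2, 9, 16, 24, 25 and 29, and IHH, a signal sent by epithelium to stroma, at 0, 15.4, 3.52, 2.75, 12.1 and 3.68 CPM. PAX2, the relative of PAX8, ranged from 0 CPM in control 2 over a median of 7.97 to 13.3 CPM in control 9. MEIS1, a HOX cofactor, ranged from 203 CPM in control 9 over a median of 373 to 597 CPM in control 2. NR2F2, a nuclear receptor of tract mesenchyme, ranged from 103.5 CPM in control 9 over a median of 165 to 223 CPM in control 2. OSR2, a zinc finger factor of the mesenchyme, was high in controls 2, 16 and 25 and low in controls 9 and 24, at 236, 92.6, 248, 86.0, 236 and 144 CPM.

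The receptors through which nerves and hormones contract or relax the wall were a mixed set of 26 expressed genes, of which 7 had an SD above 1, against 14.7% of all genes. EDNRA, the endothelin receptor of smooth muscle, lay at 225, 52.1, 159, 203, 125 and 107.3 CPM in controls 2, 9, 16, 24, 25 and 29. TACR2, the receptor for neurokinin A, ranged from 19.7 CPM in control 9 over a median of 53.3 to 134 CPM in control 2. ADRA1A, the noradrenaline receptor that drives contraction, ranged from 8.90 CPM in control 9 over a median of 33.0 to 59.4 CPM in control 16. CHRM2 and CHRM3, the muscarinic receptors, went apart in control 2, where CHRM2 was highest at 11.1 CPM and CHRM3 lowest at 0.0834 CPM. With plain totals CHRM2 was highest in control 29. VIPR2, a receptor for VIP, was well expressed, between 23.3 CPM in control 2 and 145 CPM in control 25 with a median of 70.6, and lowest in the most muscular library. PTGER3, a contractile prostaglandin receptor, ranged from 8.29 CPM in control 9 over a median of 26.8 to 68.3 CPM in control 25. AGTR1, the angiotensin receptor, was more even, between 14.8 CPM in control 25 and 33.3 CPM in control 24 with a median of 20.1, as was PTGER4, a relaxant prostaglandin receptor, between 18.8 CPM in control 25 and 35.2 CPM in control 24 with a median of 24.5.

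The nitric oxide pathway of relaxation was present at its receptor and effector ends. GUCY1A1, a subunit of the nitric oxide receptor, ranged from 23.8 CPM in control 24 over a median of 35.1 to 40.5 CPM in control 29. GUCY1B1, the other subunit, ranged from 42.6 CPM in control 24 over a median of 48.5 to 64.4 CPM in control 29. PRKG1, the cGMP-dependent kinase, ranged from 17.9 CPM in control 9 over a median of 32.4 to 53.03 CPM in control 2, and its target IRAG1, which damps calcium release, from 358 CPM in control 9 over a median of 1163 to 2033 CPM in control 2. PDE5A, the enzyme that breaks down cGMP and the target of sildenafil, lay at 216, 111.5, 233, 154, 106.6 and 632 CPM in controls 2, 9, 16, 24, 25 and 29. Control 29 held more than any other library, although it was among the 2 poorest in muscle RNA. NOS3, the endothelial synthase, averaged 6.67 ± 3.61 CPM (SD, n = 6) and was highest in control 24, and NOS2, the inducible form, 0.776 ± 0.380 CPM (SD, n = 6). KCNMA1, the pore of the BK potassium channel, was more even (0.74 log2 units SD) than its smooth muscle subunit KCNMB1 (1.16), which lay at 751, 85.9, 366, 279, 504 and 144 CPM. RHOA, the GTPase of calcium sensitisation, was steady, between 614 CPM in control 16 and 953 CPM in control 24 with a median of 799.

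Immediate early genes, which cells switch on within minutes of a stimulus or of tissue handling, split the libraries into high and low ones. Of 24 genes, 18 were highest in control 16, against 9.20% of all genes, and 11 had their 2 lowest values in controls 9 and 24, against 9.78%. FOS lay at 1392, 25.03, 1786, 80.1, 1102 and 504 CPM in controls 2, 9, 16, 24, 25 and 29. FOSB lay at 244, 2.54, 469, 1.94, 173 and 32.8 CPM, and BTG2 at 169.7, 24.2, 688, 14.1, 411 and 108.5 CPM. Controls 2, 16 and 25 were high, control 29 lay between, and controls 9 and 24 were low. Over 6 libraries 16 of the 24 genes had an SD above 1, and without controls 2 and 9 17 did, against 14.7 and 8.30% of all genes. FOS to EGR1, a ratio that scaling does not touch, stayed within 0.854 to 2.03, although FOS ranged over 71.4-fold. The labels give no time from death to freezing and no time of day, so neither could be set beside these values.

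The clock gene NR1D1, a repressor whose level swings through the day, had the same low libraries, at 91.8, 18.0, 127, 5.63, 62.3 and 43.03 CPM in controls 2, 9, 16, 24, 25 and 29. HLF, a clock output factor, was lowest in those too, at 214, 41.5, 114.1, 36.1, 113.8 and 94.4 CPM. CLOCK itself ranged from 31.6 CPM in control 25 over a median of 43.02 to 57.3 CPM in control 24. Of 15 clock genes, 5 had their 2 lowest values in controls 9 and 24, against 9.78% of all genes, and 3 had an SD above 1, a share near the 14.7% of all genes. Heat shock genes did not share the pattern: none of 9 had an SD above 1, and HSPA5, the chaperone of the endoplasmic reticulum, was highest in control 24 at 1388 CPM against 272 to 531 CPM.

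Proliferation genes had yet another order. Of 30 cell cycle genes, 29 were highest in control 24, against 18.2% of all genes, and 19 lowest in control 29, against 9.85%. TOP2A, a topoisomerase of dividing cells, lay at 12.3, 19.6, 20.4, 55.9, 27.9 and 5.65 CPM in controls 2, 9, 16, 24, 25 and 29. RRM2, which makes the building blocks of DNA, lay at 1.92, 15.8, 8.84, 42.8, 12.01 and 1.82 CPM. CCNB2, a mitotic cyclin, lay at 1.17, 8.22, 6.83, 27.3, 12.01 and 0.835 CPM. PCNA, a replication clamp that resting cells also hold, spanned less, between 53.6 CPM in control 16 and 115.2 CPM in control 24 with a median of 66.0. CDK1 was the exception that peaked in control 25, at 66.7 CPM against 43.02 CPM in control 24. With plain totals the list was lowest in control 2 in place of control 29.

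**Figure D4:**
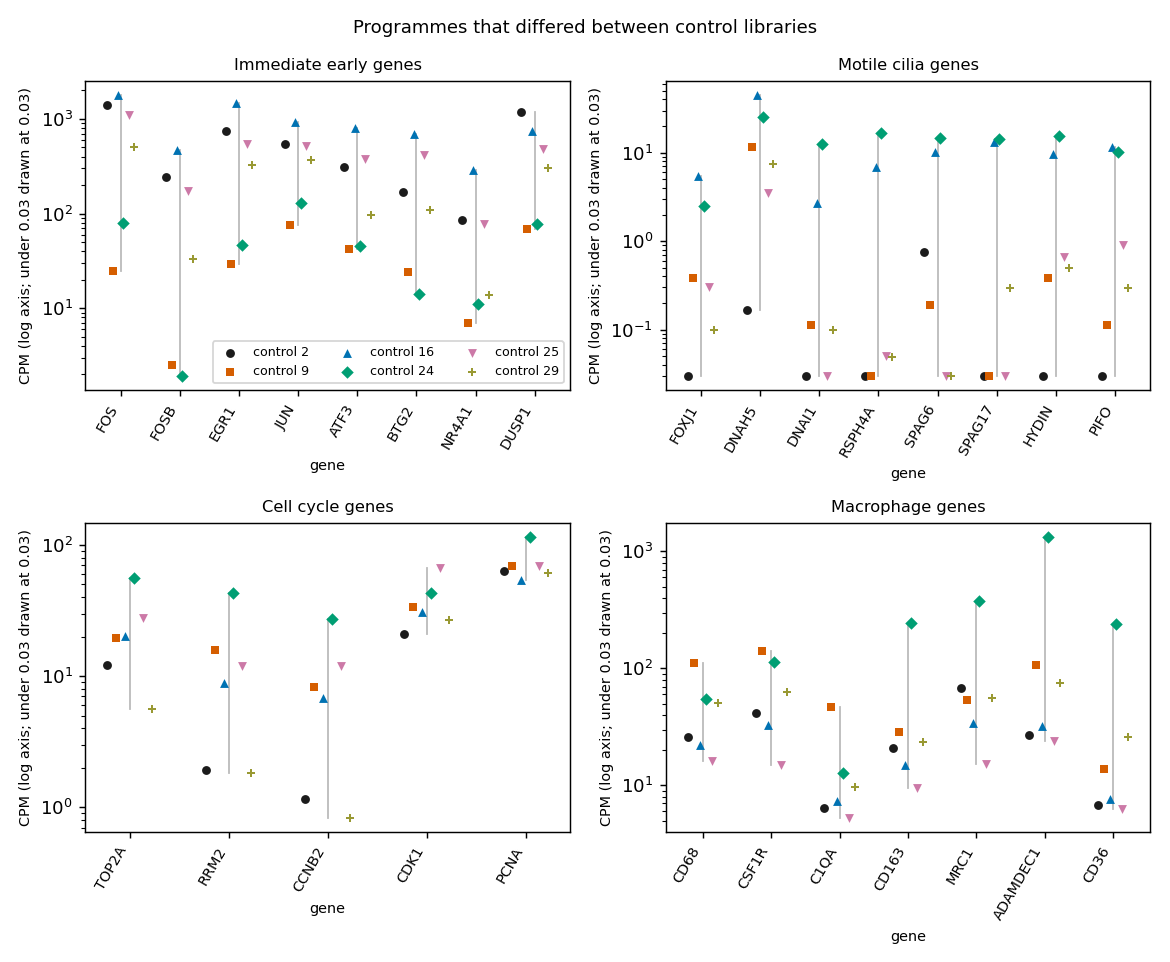
CPM (log axis, values under 0.03 drawn at 0.03) of immediate early, motile cilia, cell cycle and macrophage genes, 1 symbol per control library. Each panel has another set of high libraries: 2, 16 and 25 for FOS and its companions, 16 and 24 for cilia, 24 for TOP2A, RRM2 and CCNB2, and 24 for CD163, MRC1, ADAMDEC1 and CD36.

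Across all 10156 genes, the SD had a 10th percentile of 0.19, a median of 0.42 and a 90th percentile of 1.23. An SD above 1 was found for 1497 genes, of which 886 (59.2%) were lowest in control 2 and 640 (42.8%) highest in control 9. Without these 2 libraries 840 genes were above 1, 664 of them shared, and 321 (38.2%) of the 840 were highest in control 24 among the 4 libraries. The common biological coefficient of variation was 0.475 over 6 libraries and 0.386 over 4. Among the 15 genes with the largest SD at 10 CPM or more, several are known from epithelia. LGR5, a stem cell receptor of several epithelia, lay at 0.0834 CPM in control 2 and 68.1 to 254 CPM elsewhere, and SLCO1A2, an organic anion transporter, at 0.167 and 81.3 to 189 CPM. SLC6A2, the noradrenaline transporter, which sympathetic neurons carry, had the same gap, 0.0834 CPM in control 2 and 22.1 to 287 CPM elsewhere.

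Other variable genes were high in 1 to 3 libraries. PIP, a secretory protein of glands, was at 163 CPM in control 9, 16.4 CPM in control 24 and under 1 CPM in the other 4. MMP13, a collagenase, was at 243 CPM in control 9 and at most 4.34 CPM elsewhere. MMP7, an epithelial protease, lay at 24.8, 6456, 92.6, 1913, 53.4 and 968 CPM in controls 2, 9, 16, 24, 25 and 29. It was high in controls 9, 24 and 29 and low in controls 2, 16 and 25, the reverse of FOS and BTG2. CALB2, a calcium-binding protein of mesothelium and some neurons, was at 125 CPM in control 25 and at no more than 18.1 CPM elsewhere. MYOC, a secreted glycoprotein, and PAMR1, a secreted protease-like protein, were highest in control 29, at 62.4 and 75.9 CPM, with 0.858 and 1.67 CPM in control 25. The 15 genes with the largest SD all stayed above 1 with DESeq2 size factors and with plain totals.

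An SD below 0.25 was found for 2078 genes, 20.5% of those tested. ELF2, an ETS transcription factor, was the steadiest gene at 10 CPM or more, at 98.6, 102.04, 104.1, 100.98, 102.9 and 105.02 CPM in controls 2, 9, 16, 24, 25 and 29, a coefficient of variation of 2.27%. ACTR8, a subunit of a chromatin remodeller, lay at 32.4, 31.1, 32.6, 33.5, 33.1 and 34.5 CPM, and ZNF131, a zinc finger protein, at 47.1, 50.7, 52.7, 49.4, 50.9 and 50.3 CPM. Among the 15 steadiest were also MED15, a Mediator subunit, SMARCD1, a SWI/SNF subunit, and XPO7, a nuclear exporter, with coefficients of 4.05, 4.18 and 4.38%. Such steadiness is relative to the TMM scale. Of the 15 steadiest genes, 15 stayed under 0.25 with DESeq2 size factors and 0 with plain totals. Over controls 16, 24, 25 and 29 alone, GPBP1L1, a transcription regulator, lay between 139 and 141 CPM and UBE3C, a ubiquitin ligase, between 120.0 and 122 CPM.

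**Figure D5:**
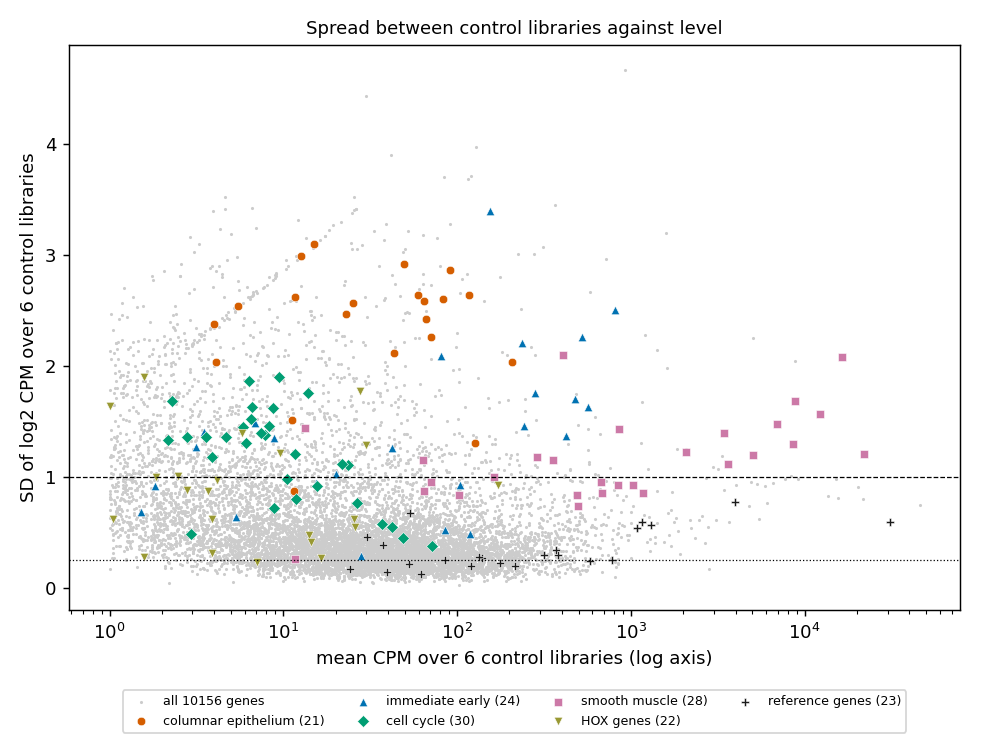
SD of log2 CPM over the 6 control libraries against mean CPM (log axis) for 10156 genes in grey, with 6 lists in colour. The dashed and dotted lines mark an SD of 1 and of 0.25. Columnar epithelium genes lie above 1 with 1 exception, and 8 of the 23 reference genes lie below 0.25, as do 20.5% of all genes.

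Genes in common use to normalise PCR assays were not equally steady. Of 23 reference genes, 8 had an SD below 0.25, as did 1916 of the 7406 genes at 10 CPM or more. Against the median of those 7406 genes, 15 of the 23 were steadier. EMC7, a subunit of the endoplasmic reticulum membrane complex, was the steadiest, with a coefficient of variation of 9.18%, and TBP, the TATA-binding protein, had 11.9%. B2M, the light chain of MHC class I, was the least steady at 52.9%, and lay at 1894, 7492, 3954, 1955, 3532 and 5124 CPM in controls 2, 9, 16, 24, 25 and 29. TFRC, the transferrin receptor, RABEFLA2 and RPL13A, a ribosomal protein, followed with 47.3, 45.7 and 43.3%. RPL13A is one of the genes with near-identical copies, between which counting may split reads. The median coefficient of all 7406 genes was 24.6%. GUSB and IPO8 lay above the median at 25.2 and 32.3%.

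With TMM, mitochondrial and ribosomal protein genes were highest in control 2, for 13 of 13 and 16 of 16 expressed genes, against 22.7% of all genes. Only 17 of the 77 ribosomal protein genes of the list were in the table. With plain totals the mitochondrial mean was 13.72 log2 CPM in control 2 and 12.91 in control 16, the next library. The ribosomal mean was then almost equal in controls 2 and 29, at 10.43 and 10.42. COX1, a subunit of cytochrome oxidase, lay at 103619, 21517, 43309.5, 36489, 38671 and 31617 CPM in controls 2, 9, 16, 24, 25 and 29. ND4L departed from its neighbour ND4 in a single library. ND4L, a small subunit of complex I that shares a transcript with ND4, had 6 counts in control 24 and 11476 to 34702 in the other libraries, while ND4 had 168255 counts in control 24. The ratio of ND4L to ND4 was 0.0595 to 0.0859 in 5 libraries and 3.57e-05 in control 24. Genes that overlap or lie in tandem may be counted differently, the strand and overlap settings are not given in the sources used here, and their part in this value was not tested.

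Last among the abundant genes, GLNB2, a symbol that the RefSeq gene table used here does not hold, had a wide range, at 17662, 781, 5356, 202, 2428 and 3791 CPM in controls 2, 9, 16, 24, 25 and 29. ALAS2, the haem synthesis enzyme of red cell precursors and chosen here after its value was seen, lay at 342, 11.2, 118, 4.19, 50.2 and 71.3 CPM. The order of the libraries was the same in both, and the ratio of their counts stayed between 0.0144 and 0.0220, although each ranged over at least 81.7-fold. Control 2 was the highest and control 24 the lowest in both genes.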

How the data were processed

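The deposited table holds whole-number read counts per gene symbol, made by the authors with FastQC, HISAT2 2.2.1 and featureCounts, per the submitters' processing notes. Build, annotation and strand setting are not given in the sources used here. Columns were matched to samples by the sample index that ends each column name in the labels, because the running number before it differs between labels and table. A pooled line without a gene name, 22.9 to 27.0% of all counts, was left out. Counts of the 6 control libraries were scaled with edgeR 4.0.16 (TMM) in R 4.3.3, and log2 values carry a prior count of 2. DESeq2 1.42.0 size factors served as an alternative, as did plain library totals, which were chosen after seeing the data. No groups were compared, so there is no test between groups and no p-value. The spread between these libraries may be biological or technical.

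The 45 gene lists, the members and the rules were chosen with earlier results of these data known. Of 1248 list entries, 859 were in the table and 735 had a mean of at least 1 CPM. Named are the 25 genes with the highest mean, per list the defining markers, the 3 members with the highest mean and those with the largest SD, any member of the steroid receptor, HOX, oestrogen-responsive, contractility and reference lists, and the 15 most and 15 least variable genes at 10 CPM or more, over 6 libraries and without controls 2 and 9. ALAS2, CDK1, CLOCK, COL14A1, CYP17A1, CYP19A1, CYP1B1, FSHR, GUCY1B1, IHH, KRT1, LEP, LHCGR, LOXL3, MTNR1A, MUC1, ND4, NOS2, NOS3, NR2F2, PRKG1, RRM2, SBSN, SCNN1A, SPAG6, TOP2A, TUBB3 and VIP were chosen after their values were seen, as was RBPMS2. RefSeq gene names (assembly mOryCun1.1) matched 12341 of 13001 symbols. Some genes that the rule names are not reported here. The scripts were tested on simulated data.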

Additional observations from a re-analysis of the deposited data

Results flagged for a closer look

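In each group of 6 values, a library was marked where its gap to the nearest of the others exceeded 0.625 of the whole range (Dixon's 95% value). Chance marks about 1 in 20 groups, and 30 of 223 measures were marked. That share is not to be read against chance, since many of the genes were named for their large SD or after their values were seen, and the measures share libraries.

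Control 2 was the lowest in most of them. It had 10797 genes with a count, against 11427 in the next library. Its mean log2 CPM was −0.46 for columnar epithelium (next 3.86), 2.62 for secreted mucosal products (next 6.75), 1.25 for fluid and ion transport (next 4.00) and 0.56 for the 4 genes of interstitial cells of Cajal (next 2.24). Of the 4 Cajal cell genes, 2 were lowest in control 2, against 27.5% of all genes. The summed level of the 4 was 35.0 CPM there and 39.8 to 55.6 CPM elsewhere. Of the 172 named genes with a count, 14 were marked for a low value in control 2. Epithelial junction and surface genes were CDH1 at 1.25 CPM (next 35.0), EPCAM at 1.58 CPM (next 51.03), and MUC1 at 1.75 CPM (next 112.6). Transporters were CFTR at 0.167 CPM (next 66.0), SCNN1A at 0.667 CPM (next 35.0), SLCO1A2 at 0.167 CPM (next 81.3) and SLC6A2 at 0.0834 CPM (next 22.1). Tract regulators were PAX8 at 0.334 CPM (next 25.3), PAX2 at 0 CPM (next 4.19), IHH at 0 CPM (next 2.75) and LGR5 at 0.0834 CPM (next 68.1). Receptors and cofactors were PRLR at 0.417 CPM (next 8.53), CHRM3 at 0.0834 CPM (next 4.82) and FKBP5 at 1.67 CPM (next 9.30).

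Other libraries stood apart in fewer measures. Control 24 was the highest in ADAMDEC1 at 1331 CPM (next 107.2), in CD163 at 243 CPM (next 28.6) and in PCNA at 115.2 CPM (next 69.7), and the lowest in ND4L at 0.270 CPM (next 434.5). Control 9 was the highest in CYP1A1 at 373 CPM (next 2.598) and in MS4A1 at 10.5 CPM (next 1.23). Control 25 was the lowest in the fibroblast list at 7.71 log2 CPM (next 8.14) and in RFX3 at 6.01 CPM (next 11.6). Control 16 was the highest in SGK1 at 103.6 CPM (next 70.8). Control 29 was the highest in VIP at 2.41 CPM (next 0.0419) and in ESR2 at 0.0491 CPM, its single count.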

How the results depend on the processing

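Genes detected at 1 CPM in all libraries (9007) ran from 9005 to 9451 when each library was left out in turn, genes holding 50% of the counts (245) from 204 to 323, genes with an SD above 1 (1497) from 1051 to 1651, genes with an SD below 0.25 (2078) from 1985 to 2527, and the common biological coefficient of variation (0.475) from 0.427 to 0.504. The count of steady genes fell to 807 with plain library totals, of which 220 were shared. Rescaling without controls 2 and 9 gave 856 genes above 1 and 3140 below 0.25. A mean of at least 10 CPM left 637 genes above 1, since fewer genes are tested. With the pooled unnamed line in the total, 914 genes were needed to reach 50% of it. Of the 45 list means, 17 moved by more than the spread between libraries when all members with a count entered, and 1 moved without control 2. Of the 162 named genes with a mean of at least 1 CPM, the highest library changed for 32 and the lowest for 37 with plain totals, and for 6 and 2 with DESeq2 size factors. No paired analysis was possible because only 1 group is described. Depth limits genes under the 3 counts that a count of 0 allows, and 6 animals limit every statement on spread.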
